A study of Mus musculus with 6 samples.

Results

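Vasopressin and oxytocin, the neurohypophysial peptides, and 3 of their receptors were followed in RNA-seq libraries of the mouse suprachiasmatic nucleus (SCN), the hypothalamic nucleus that holds the central circadian clock. The genes were chosen by symbol: Avp and Oxt, which encode the peptide precursors, and Avpr1a, Avpr1b and Oxtr, which encode receptors. All 5 were among the 17645 genes listed in at least 1 library. The tissue came from female C57BL/6 mice killed in the dark at zeitgeber time (ZT, counted in hours from lights on) 12 to 14, and was punched with a needle from frozen coronal sections. There were 3 libraries titled V (replicates 2, 3 and 4) and 3 titled r1r2V (replicates 1, 4 and 5), each made from the pooled RNA of 2 SCN. The series title describes a knockout of REV-ERBα and REV-ERBβ, the clock repressors encoded by Nr1d1 and Nr1d2, in GABAergic neurons, and the r1r2V libraries were read as that knockout and the V libraries as its control. The labels give no age, no driver of the deletion and no meaning for V, nor whether the paired SCN of a pool were from separate animals, and the p-values therefore describe only how these libraries vary.

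Avp neurons form the dorsal shell of the SCN, where vasopressin couples clock cells to each other through the V1a receptor encoded by Avpr1a, and they also fill parts of the paraventricular and supraoptic nuclei nearby. Oxt is the product of magnocellular and parvocellular neurons of the paraventricular, supraoptic and accessory nuclei rather than a classical SCN peptide. Both precursors hold a nonapeptide followed by a neurophysin, the carrier protein that packs the hormone into granules, and the vasopressin precursor ends in a further glycopeptide, copeptin. The V1a, V1b and oxytocin receptors signal through Gq and phospholipase C, while the V2 receptor, encoded by Avpr2, raises cyclic AMP in the kidney.

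The 2 peptide genes lie tail to tail on chromosome 2 (GRCm38). Oxt (gene 18429) runs from 130574519 to 130577054 on the plus strand and Avp (gene 11998) from 130580620 to 130582588 on the minus strand, with 3565 bp between them, and each has 3 exons. Avpr1a (gene 54140) lies on chromosome 10 from 122448499 to 122453453, Avpr1b (gene 26361) on chromosome 1 from 131599114 to 131612000, both on the plus strand. Oxtr (gene 18430) occupies 112473683 to 112491035 of chromosome 6, minus strand. Exon 2, which encodes most of the neurophysin, is shown for both peptide genes because its near identity bears on how their reads were counted. Both copies are 202 bases long and wholly coding, at chr2:130581056-130581257 on the minus strand for Avp and chr2:130576591-130576792 on the plus strand for Oxt (GENCODE M21 transcripts, GRCm38). Capitals mark the 9 bases that differ.
Avp exon 2: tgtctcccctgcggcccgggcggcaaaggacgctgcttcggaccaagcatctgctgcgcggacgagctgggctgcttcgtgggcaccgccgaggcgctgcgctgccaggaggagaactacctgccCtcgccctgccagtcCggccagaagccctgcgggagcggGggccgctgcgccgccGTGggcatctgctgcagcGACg
Oxt exon 2: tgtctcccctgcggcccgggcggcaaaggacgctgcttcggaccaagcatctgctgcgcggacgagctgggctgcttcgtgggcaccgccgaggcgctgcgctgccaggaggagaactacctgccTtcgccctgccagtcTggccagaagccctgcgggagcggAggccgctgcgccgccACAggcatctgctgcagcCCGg
The other 193 bases (95.5%) were the same, and the first 125 ran without a difference. Across the spliced mRNAs the longest identical run was 127 bases, of which the first bases close exon 1. Windows of 50 bases that occur unchanged in the other mRNA made up 14.8% of all such windows of Avp and 16.0% of those of Oxt, and windows of 100 bases made up 5.86% and 6.39%. Over their aligned coding bases Avp and Oxt were 85.9% identical. The receptor genes were less alike, with 66.4% for Avpr1a and Avpr1b, 68.8% for Avpr1a and Oxtr, and 68.7% for Avpr1b and Oxtr.

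**Figure D1:**
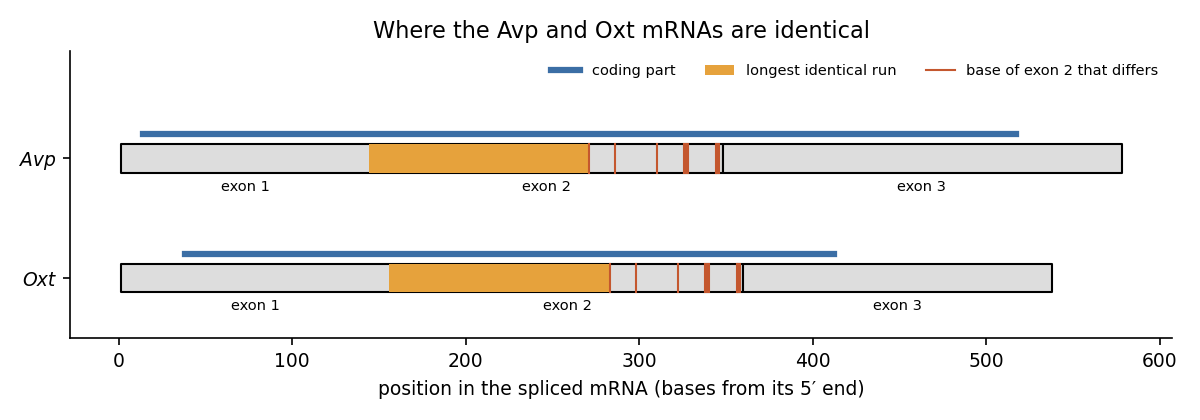
Spliced Avp and Oxt mRNAs drawn to scale along the position from the 5′ end in bases, with exons as boxes, the coding part as a blue line, the longest identical run in orange and the differing bases of exon 2 as red ticks. The identical run of 127 bases covers the start of exon 2 in both mRNAs, and the 9 differences lie in the rest of that exon.

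The expected counts show this sharing directly. An expected count is an estimated number of reads in which reads that match several transcripts are divided between them. Avp and Oxt had fractional counts in all 6 libraries, such as 4383.72 and 16776.28 in V replicate 2, while their sum was a whole number in each one (21160, 17046 and 20557 in V and 13803, 12092 and 20264 in r1r2V). Reads were thus divided between these 2 genes, so part of each value rests on the estimate, whereas their sum does not. The counts of Avpr1a, Avpr1b and Oxtr were whole numbers in all 6 libraries.

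The stretches upstream of the peptide genes are shown because clock factors act on Avp through an E-box. They are the 250 bases before the start site in the RefSeq table (GRCm38.p6), at chr2:130582589-130582838 on the minus strand for Avp and chr2:130575919-130576168 on the plus strand for Oxt. Capitals mark matches on either strand to the E-box CACGTG, its variant CACGTT or the nuclear receptor element AGGTCA, which REV-ERB and ROR proteins also bind.
Avp upstream: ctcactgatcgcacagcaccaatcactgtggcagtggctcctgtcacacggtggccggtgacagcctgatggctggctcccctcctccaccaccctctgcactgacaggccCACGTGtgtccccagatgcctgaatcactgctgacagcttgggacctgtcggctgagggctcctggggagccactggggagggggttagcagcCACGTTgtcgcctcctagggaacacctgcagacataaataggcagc
Oxt upstream: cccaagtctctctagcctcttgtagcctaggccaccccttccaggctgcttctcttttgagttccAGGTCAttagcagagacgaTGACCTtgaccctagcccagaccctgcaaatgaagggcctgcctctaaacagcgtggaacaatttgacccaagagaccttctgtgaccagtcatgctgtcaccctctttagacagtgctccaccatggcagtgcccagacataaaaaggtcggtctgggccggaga
The Avp stretch held 1 CACGTG, starting at -139 from the start site, and 1 CACGTT at -46, and no AGGTCA. The Oxt stretch held 2 matches to AGGTCA, starting at -185 and -166, and neither E-box form. The corresponding stretch of Oxtr held 1 CACGTG at -43 and 1 AGGTCA at -98, and that of Avpr1a held none of the 3. Of 32851 such stretches in the table, 6.02% held CACGTG, 3.85% CACGTT and 14.0% AGGTCA, and the matches did not overlap each other. The Oxt and Oxtr stretches lie within the spans RefSeq gives these genes, whose 5′ ends are further upstream. The Oxtr stretch also overlaps the GENCODE transcript Oxtr-201, and both of its matches fall within the span of that transcript. The cyclic AMP element TGACGTCA and the D-box forms TTATGTAA and TTACGTAA were also searched on both strands and had no match in these 4 stretches, and they occurred in 1.55%, 0.819% and 0.113% of all. Stretches were found for 4 of the 5 genes, all but Avpr1b. A match is a description of the letters and not evidence of binding.

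Libraries held between 15729603 and 17780928 expected counts in total. In CPM, the count relative to the scaled library total, Nr1d1 averaged 58.8 ± 3.27 across V and 167 ± 25.7 across r1r2V, and Nr1d2 175 ± 6.01 and 242 ± 28.6 (SD, n = 3 each). Neither targeted gene was lower in the libraries labelled r1r2V, so the direction of every difference below rests on the titles. SCN neuron markers were present in all libraries, with a summed level of 466 to 527 CPM in V and 398 to 595 CPM in r1r2V over 15 genes. The r1r2V library of replicate 5 stood apart in peptide genes of the region. Vip, a peptide of the ventral SCN core, had 11.4 CPM there against 50.5 to 85.8 CPM in the other 5 libraries, and Pmch, the melanin-concentrating hormone gene of the lateral hypothalamus, had 581 CPM against 1.67 to 213 CPM. Results are therefore also given without it.

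Ordered by level per transcript length, Oxt came first, followed by Avp, Avpr1a, Oxtr and Avpr1b. The scale here is FPKM, fragments scaled by transcript length and library size. Oxt had 1895 ± 303 FPKM in V and 1426 ± 332 in r1r2V, and Avp 543 ± 115 and 460 ± 231 (SD, n = 3 each). Oxt ranked between 6 and 19 among all genes of a library and Avp between 63 and 237. The lowest Oxt value, 1096 FPKM, lay above the highest Avp value, 725 FPKM. Within a library Oxt was 2.43 to 4.68 times as high as Avp. Avpr1a followed with 3.10 ± 0.216 and 2.03 ± 0.332 FPKM, and Oxtr with 1.42 ± 0.254 and 1.40 ± 0.342 FPKM (SD, n = 3 each). The lowest Avpr1a value, 1.82 FPKM, and the highest Oxtr value, 1.72 FPKM, both came from r1r2V replicate 5, and Avpr1a was the higher in each of the 6 libraries. Avpr1b reached at most 0.06 FPKM and Avpr2 at most 0.10 FPKM, and these last values overlapped.

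**Figure D2:**
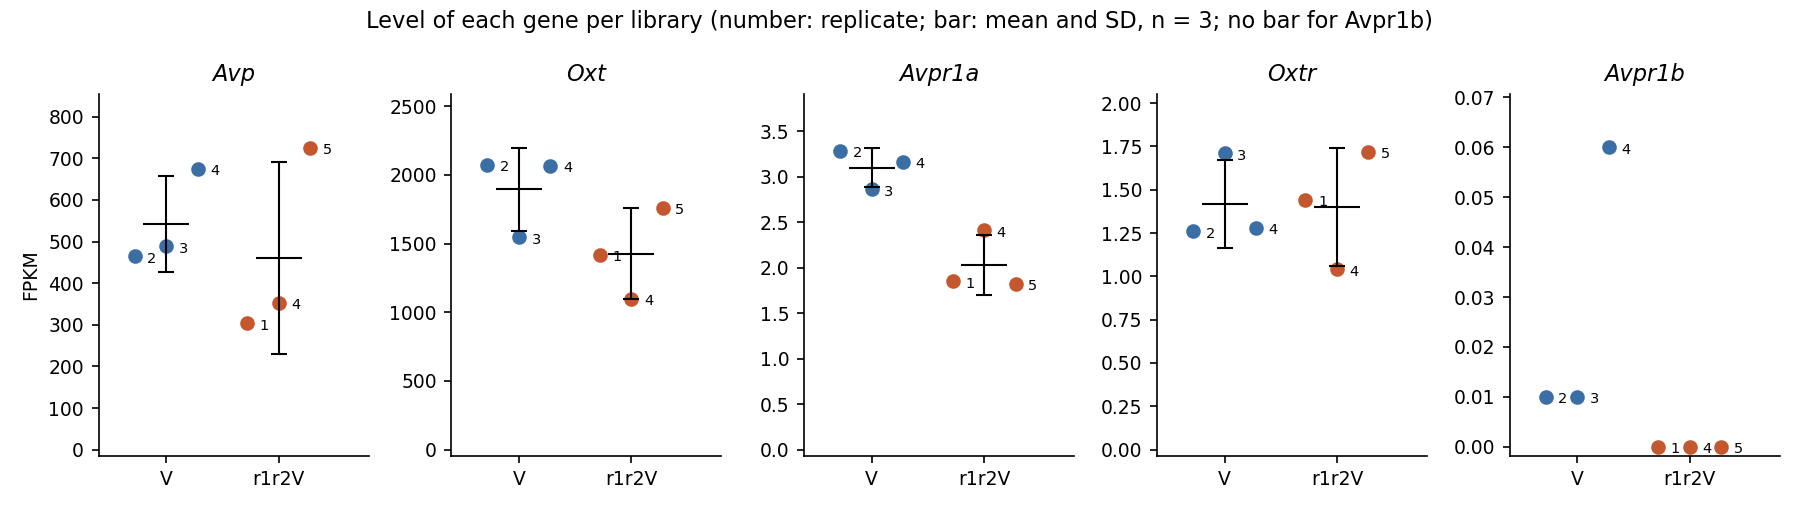
FPKM (linear axis, a scale of its own for each gene) of the 5 genes in each library of V (blue) and r1r2V (orange), with the replicate number beside each point and the mean and SD as bars (no bar for Avpr1b). Only for Avpr1a and the barely detected Avpr1b do all r1r2V libraries lie below all V libraries.

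The comparison of the r1r2V with the V libraries asks how these genes differ between the groups that the titles set apart as REV-ERB knockout and control. No gene of the group passed the test. Of the 4 genes with enough counts to be tested (Avp, Oxt, Avpr1a and Oxtr), 0 passed edgeR's quasi-likelihood test at an adjusted p of 0.05, where 0.416% of the 14438 genes tested passed in either direction. At an unadjusted p under 0.05, 2 of the 4, Oxt and Avpr1a, were lower in r1r2V, against 3.63% of all genes tested. DESeq2 and limma-voom also called 0, with 1 and 2 at an unadjusted p under 0.05. In bulk tissue, fewer cells of a type and less RNA per cell cannot be told apart.

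Avp had 247, 259 and 360 CPM in V replicates 2, 3 and 4 and 160, 190 and 384 CPM in r1r2V replicates 1, 4 and 5. The 2 lowest and the single highest libraries were all r1r2V, so the groups overlapped fully. The log2 fold change (r1r2V minus V) was -0.24 with a 95% interval of -0.86 to 0.38 (edgeR's quasi-likelihood test, adjusted p = 0.837), so the data allow anything from a fold of 0.550 to one of 1.30. Without r1r2V replicate 5, the library with the highest Avp, it was -0.73 (interval -1.07 to -0.39, adjusted p = 0.115). Without V replicate 4, r1r2V replicate 1 or r1r2V replicate 4 it moved the other way, to -0.05, -0.01 and -0.09. Avp was among the most variable genes at its level. Its SD of log2 CPM was 0.30 within V and 0.67 within r1r2V, above that of 99.7% and 99.9% of the 1536 tested genes within 2-fold of its level, whose median SDs were 0.05 and 0.10.

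Oxt had 947, 702 and 944 CPM in V replicates 2, 3 and 4 and 641, 505 and 797 CPM in r1r2V replicates 1, 4 and 5. Both r1r2V libraries with low Avp were also the lowest in Oxt, while r1r2V replicate 5 lay above V replicate 3. The log2 fold change was -0.42 with an interval of -0.77 to -0.06 (unadjusted p = 0.0251, adjusted p = 0.579 with edgeR's quasi-likelihood test), a fold of 0.750. Leaving out single libraries gave -0.60 (without r1r2V replicate 5) to -0.27 (without r1r2V replicate 4), and the adjusted p ran from 0.177 to 1.00. Its SD of log2 CPM was 0.25 in V and 0.33 in r1r2V, above that of 100% and 98.6% of 352 genes within 2-fold of its level.

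Summing the pair removes the division of shared reads. The summed count gave a log2 fold change of -0.37 (interval -0.76 to 0.02, adjusted p = 0.660, edgeR's quasi-likelihood test), and -0.63 (interval -0.90 to -0.35, adjusted p = 0.0924) without r1r2V replicate 5. This sum was chosen after seeing the data. The balance between the peptides did not separate the groups. Avp made up 18.3%, 24.0% and 24.7% of the pair's FPKM in V and 17.6%, 24.3% and 29.2% in r1r2V. The log2 ratio of Avp to Oxt was -1.81 ± 0.303 in V and -1.71 ± 0.479 in r1r2V (SD, n = 3 each), a difference of 0.10 (exact permutation test, two-sided, p = 0.9, where 3 against 3 cannot go below 0.1).

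Avpr1a, the V1a receptor gene, had the lowest fold of the 4 tested genes. Its expected counts were 150, 130 and 128 in V and 81, 109 and 81 in r1r2V, or 8.46, 7.32 and 8.12 CPM against 4.70, 6.26 and 4.72 CPM. All r1r2V libraries lay below all V libraries, as they did in 7.63% of all genes tested. In 0 of the 4 tested genes did all r1r2V libraries lie above all V libraries, against 6.87% of all genes tested. The log2 fold change was -0.61 with an interval of -0.96 to -0.26, a fold of 0.657 (unadjusted p = 0.00318, adjusted p = 0.293 with edgeR's quasi-likelihood test), so the difference did not pass over all genes. Without single libraries it stayed between -0.76 and -0.54, with adjusted p from 0.136 to 0.931. The exact 95% Poisson interval, which covers counting error only, ran from 107 to 152 for the lowest V count and from 89.5 to 131 for the highest r1r2V count. Its SD of log2 CPM was 0.10 in V and 0.22 in r1r2V, against medians of 0.13 and 0.17 for genes of like level.

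Oxtr, the oxytocin receptor gene, had 100, 135 and 90 counts in V and 110, 82 and 133 in r1r2V, or 5.64, 7.61 and 5.71 CPM against 6.38, 4.71 and 7.75 CPM. The group means hardly differed, with a log2 fold change of -0.01, but the interval of -0.46 to 0.44 still allows folds from 0.725 to 1.36 (adjusted p = 0.991, edgeR's quasi-likelihood test). The sign turned without V replicate 3 (0.15) and without r1r2V replicate 4 (0.16). The highest Oxtr values came from V replicate 3 and r1r2V replicate 5, 1 library of each group.

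Avpr1b, the V1b receptor gene best known from the pituitary and from hippocampal area CA2, was at the edge of detection. It had 1, 1 and 4 counts in V replicates 2, 3 and 4 and was not listed, read as 0, in the 3 r1r2V libraries. The 6 counts over V have an exact 95% Poisson interval of 2.2 to 13.1, and a count of 0 over r1r2V allows up to 3 counts, or 3.69 at the same exact level. It did not pass the filter on low counts and was not tested in the main comparison. Without that filter edgeR's quasi-likelihood test gave an unadjusted p of 0.0364 (interval of the log2 fold change -7.89 to -0.32) and an adjusted p of 0.681. DESeq2, also run without that filter, gave an unadjusted p of 0.119. The interval depends on how zeros are handled and is no bound. Avpr2, the V2 receptor gene, had 5 counts over V and 6 over r1r2V.

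**Figure D3:**
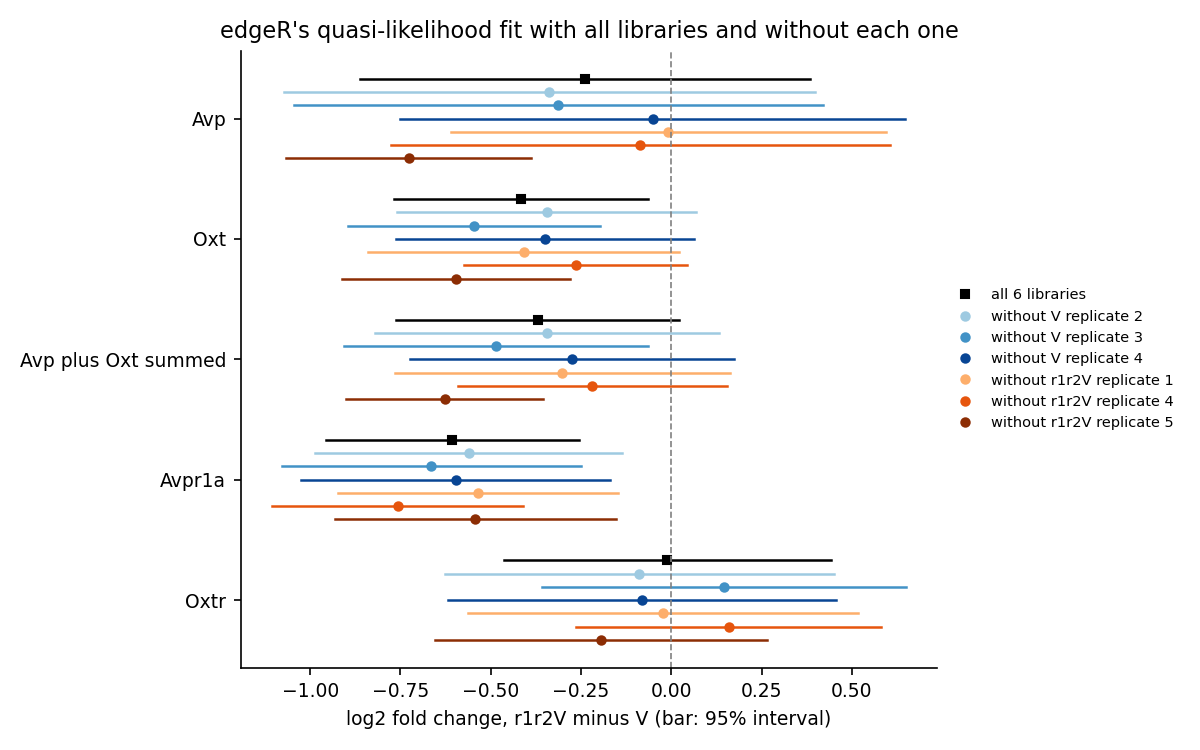
Log2 fold change (r1r2V minus V, horizontal axis) with its 95% interval for the 4 tested genes and the summed peptide pair, from all 6 libraries (black squares) and without each library in turn (circles). Avp moves from -0.24 to -0.73 when r1r2V replicate 5 is left out, Avpr1a stays between -0.76 and -0.54, and Oxtr lies on both sides of 0.

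Neighbouring cell groups varied between libraries beside these genes. Markers of paraventricular and magnocellular neurons, where most Oxt is made, summed to 841 to 924 CPM in V and 807 to 847 CPM in r1r2V over 11 genes, none of them at 0, and 0 of 11 passed the test (median log2 fold change -0.11, against 0.01 for all genes). Trh, the thyrotropin-releasing hormone gene, gave 332, 294 and 378 CPM across V, against 298, 294 and 270 CPM across r1r2V. Arnt2, another gene of the list, had 238 to 248 CPM in V and 211 to 247 CPM in r1r2V. Trh and Arnt2 held most of the sum in each library, so it does not describe the rest of the list. Otp, a transcription factor needed for Oxt neurons to form, was lowest in r1r2V replicate 4 (7.01 CPM against 13.1 to 16.9 CPM), the library with the lowest Oxt. Of the same list, Caprin2 was also lowest in that library (23.3 CPM) and Gal was highest (99.0 CPM), while the others were at neither end. Creb3l1, an activator of Avp transcription, gave 9.48, 6.59 and 6.66 CPM across V, against 5.45, 4.94 and 4.08 CPM across r1r2V. Otp and Creb3l1 were picked from the list after their values were seen, and not all of it ran the same way: 7 of the 11 had a negative log2 fold change and 4 a positive one. Cartpt, the CART peptide precursor, had the highest of these, 0.45 (unadjusted p = 0.0423, adjusted p = 0.640, edgeR's quasi-likelihood test). Crh, the corticotropin-releasing hormone gene, was at 0.32, Pdyn, the prodynorphin gene, at 0.09 and Caprin2 at 0.02. The part of these neurons in the Avp and Oxt values was not tested.

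The 2 libraries with the highest Oxtr also held the most Pmch, with 213 CPM in V replicate 3 and 581 CPM in r1r2V replicate 5 against at most 23.3 CPM in the others. Hcrt, the orexin gene of the lateral hypothalamus, had 9.35 and 16.0 CPM in these libraries and at most 8.18 CPM elsewhere. Pomc, the arcuate precursor of melanocortins and endorphin, had 303 and 68.8 CPM against at most 23.7 CPM. Sst, the somatostatin gene, had 288 and 286 CPM against at most 255 CPM. Other genes of the same list went the other way. Kiss1, the kisspeptin gene, had its lowest values in these libraries (3.61 and 0.175 CPM against at least 4.94 CPM), and so had Gnrh1, the gonadotropin-releasing hormone gene (2.37 and 1.63 CPM against at least 3.71 CPM). All but Pmch and Sst were named after their values were seen. Over 12 peptide genes of other hypothalamic nuclei the sum was 481 to 1007 CPM in V and 404 to 1100 CPM in r1r2V, with the upper ends in the same 2 libraries, and 0 of the 11 tested passed. Pmch and Pomc, given above, held most of the sum in these 2 libraries, so it does not describe the rest of the list. In r1r2V replicate 5, where Avp was highest, the SCN markers Vip and Prok2 were at their lowest of the 6 libraries (11.4 and 1.75 CPM). Of the SCN marker list, Lhx1, Zfhx3, Vipr2, Grp, Nms, Prokr2, Gpr176 and C1ql3 were also lowest there. Six3, Six6, Rora, Rgs16 and Syt10 were not. The sum of the SCN markers was lowest in this library as well (398 CPM). Gal and Nts from the lists of neighbouring nuclei were lowest there too (21.0 and 22.6 CPM). Pdyn, Cartpt and Tac1, peptide genes of the same neighbouring lists, were at their highest there (68.6, 91.7 and 81.1 CPM). The part of these neurons in the Avp and Oxtr values was not tested.

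**Figure D4:**
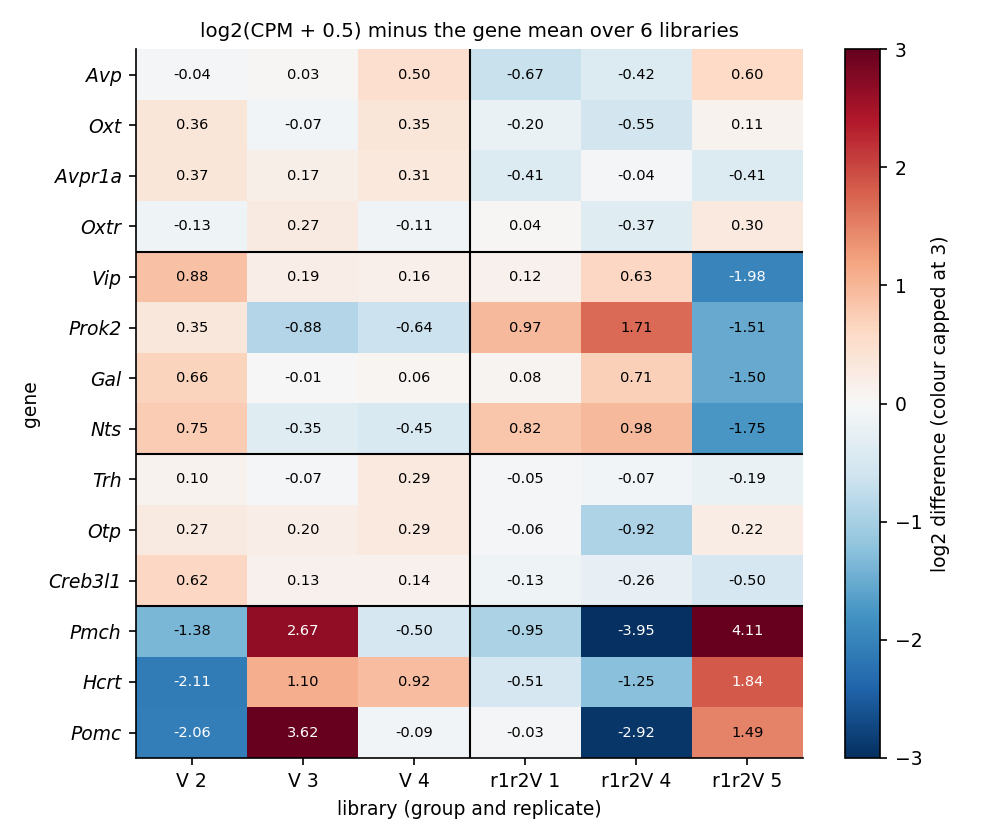
Heat map of log2(CPM + 0.5) minus each gene's mean, for 14 genes (rows) in the 6 libraries (columns), with red above and blue below the mean. The genes below the top block were picked from the marker lists after their values were seen. Members of these lists that went the other way, such as Kiss1, Gnrh1 and Cartpt, are not drawn. Avp is 0.60 above its mean in r1r2V replicate 5 while Vip is 1.98 below, and Oxtr and Pmch share their 2 highest libraries.

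Markers of glia and vessels gave 0 calls. Oligodendrocyte markers, which the optic chiasm beneath the SCN is rich in, summed to 5503 to 7647 CPM in V and 5376 to 6933 CPM in r1r2V over 7 genes, and over all 6 libraries Mbp, a main myelin gene, ranged from 2329 to 3436 CPM. V replicate 4 and r1r2V replicate 5, highest in Avp, were also highest in these sums. Astrocyte markers summed to 2772 to 2901 and 2623 to 3107 CPM over 7 genes, among them Slc1a3 and Agt, and microglia markers to 164 to 175 and 168 to 194 CPM over 6, among them Csf1r and C1qa. Endothelial markers summed to 194 to 202 and 188 to 214 CPM over 5, among them Cldn5 and Ly6c1, and meningeal fibroblast markers to 39.3 to 46.0 and 41.1 to 77.4 CPM over 5, among them Col1a2 and Dcn. For the astrocyte, microglia, endothelial and meningeal fibroblast markers the highest sum of all libraries also came from r1r2V replicate 5. V replicate 4 had the lowest meningeal fibroblast sum (39.3 CPM). None of these marker genes was at 0 in all libraries, and their part in the results was not tested.

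Of the machinery that turns the precursors into peptides, 1 of 7 genes rose and 0 fell, against 0.298% and 0.118% of all genes tested. Scg5, whose product chaperones a prohormone convertase, rose: the V libraries had 382, 375 and 382 CPM, the r1r2V libraries 733, 565 and 597 CPM (log2 fold change 0.73, adjusted p = 0.00641, edgeR's quasi-likelihood test). That call ended without any single V library, at adjusted p of 0.0600, 0.0571 and 0.0583 without replicates 2, 3 and 4. The other 6 did not pass: Pcsk1, Pcsk2, Furin, Cpe, Pam and Pcsk1n. Cpe, the carboxypeptidase that trims the peptides, had 2102 to 2289 CPM in V and 2105 to 2397 CPM in r1r2V, and Pcsk1n, an inhibitor of a convertase, had 1183 to 1211 and 799 to 1262 CPM. The median log2 fold change of the 7 was 0.00.

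Receptor signalling genes gave 0 calls among the 15 tested of 16, with a median log2 fold change of 0.00. Gna11, a Gq-family alpha subunit, stood at 138, 138 and 137 CPM across V, against 134, 128 and 120 CPM across r1r2V. Prkcb, a protein kinase C, had 215 to 231 CPM in V and 215 to 238 CPM in r1r2V. Genes of peptide release and breakdown also gave 0 calls among 4 (median 0.12). Cd38, an enzyme needed for oxytocin release, had 18.3 to 24.2 CPM in V and 20.0 to 26.2 CPM in r1r2V, and Thop1, a peptidase, had 37.1 to 38.5 and 33.8 to 37.5 CPM.

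Of 11 clock factors acting at E-boxes and D-boxes, 3 passed as higher, 0 as lower and 8 not at all (median log2 fold change 0.22, against 0.01 for all genes). Of all genes tested, 0.298% passed as higher and 0.118% as lower. Arntl, which encodes the E-box activator BMAL1, was at 29.0, 29.5 and 27.2 CPM in the V libraries and at 49.1, 47.3 and 45.9 CPM in those titled r1r2V (log2 fold change 0.73, adjusted p = 0.000914, edgeR's quasi-likelihood test). Npas2, which encodes a partner of BMAL1, and Bhlhe40, which encodes a repressor at E-boxes, also rose, by 0.99 and 0.51 on the log2 scale (adjusted p = 0.0359 and 0.0318). The calls of both ended without any single V library, with adjusted p from 0.103 to 0.254 for Npas2 and 0.160 to 0.221 for Bhlhe40, and that of Npas2 also without r1r2V replicate 1 or 4 (0.0817 and 0.113). The list then counted 1 without any single V library and 4 without r1r2V replicate 5. With all 6 libraries, Npas2 also failed under limma-voom (adjusted p = 0.0590). It failed too with limma on log2(FPKM + 1) and log2(FPKM + 0.1) (adjusted p = 0.0881 and 0.0797). The list counted 2 in each of these fits and 4 with DESeq2. Of the 15 SCN neuron markers 0 passed (median -0.12), and 1, Rgs16, a regulator of G-protein signalling, passed without r1r2V replicate 5 (adjusted p = 0.000138, against 0.0588 with all 6 libraries).

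The genes with the most similar profiles over the 6 libraries were found by the root-mean-square distance of log2(CPM + 0.5) values, each centred on the gene's own mean, among 13873 tested genes averaging 1 CPM or more. For Avp these were Unc5cl, Kcne4 and Ebf3, at distances of 0.12, 0.16 and 0.18. For Oxt they were Ifitm10, Jph2 and Plvap, at 0.08, 0.10 and 0.10, and for Avpr1a they were Ldb3, Syce2 and Tmem260, at 0.09, 0.09 and 0.10. Ntn4, Hyal1 and Sytl4 were nearest to Oxtr, at 0.05, 0.05 and 0.06. None of these 12 genes passed the test between groups. Ldb3 and Tmem260 lie on chromosome 14, which also holds Nr1d2. Among these 13873 genes Oxt ranked 301 in likeness to Avp and Avpr1a ranked 8942, while in likeness to Oxt, Avp ranked 6164 and Oxtr 7028. Both ranks of the peptide pair rest on the same distance, 0.33. The root-mean-square of the centred values was 0.45 for Avp and 0.32 for Oxt, so a gene without variation would lie nearer to Oxt than Avp did.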

How the data were processed

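Gene-level RNA-seq tables of 6 libraries were used, 3 titled V and 3 titled r1r2V. Each deposited table lists genes with 2 values, an expected count and an FPKM, per the file headers. Expected counts are estimated read numbers, and 9.9% of those deposited by the authors were not whole (tolerance 0.005). The FPKM values, a unit named in the deposited file headers, are relative to transcript length and library size. The submitters' processing notes name RSEM 1.2.12, Bowtie2 2.2.5 and HISAT2 2.0.4 among other tools, and the build mm10. Which tool made which value, the read length and strand use are not given in these sources. Genes absent from a table were read as 0.

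Expected counts were rounded, filtered with filterByExpr, TMM-scaled and compared with the quasi-likelihood test of edgeR 4.0.16 in R 4.3.3, with Benjamini-Hochberg adjustment over 14438 genes, after the test had been tried on simulated data. Log2 fold changes give r1r2V relative to V. Their intervals use the test's own degrees of freedom. Alternatives used DESeq2 1.42.0, limma 3.58.1, other scalings and filters, log2(FPKM + 1), log2(FPKM + 0.1) and each library left out. Genes and lists were chosen with earlier results of these data known. In each list, called genes were named and, with fewer than 2 called, the 2 with the highest mean FPKM, and for each tested member the 3 genes of nearest profile. 1 gene that this rule names is not reported here. Other list genes were named after their values were seen, and so were those in the heat map. Gene positions and upstream sequences are from RefSeq (GRCm38.p6, the assembly that mm10 names) and exons from GENCODE.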

Additional observations from a re-analysis of the deposited data

How the results depend on the processing

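No paired analysis was possible because replicate 4 is the single number that both groups carry. Avp, Oxt, Avpr1a and Oxtr passed in 0 of 14 alternatives each. Avp ran from -0.73 to -0.01 without single libraries, Oxt from -0.60 to -0.27, Avpr1a from -0.76 to -0.54, Oxtr from -0.19 to 0.16 and the summed pair from -0.63 to -0.22. The difference between groups (r1r2V minus V) in the Avp-to-Oxt log2 ratio ran from -0.12 to 0.35. It turned sign without V replicate 2 (-0.08) and r1r2V replicate 5 (-0.12). Avpr1b, tested by 2 alternatives, had -3.51 with DESeq2 and -4.10 without a filter (adjusted p = 1.00 and 0.681), fitted values that depend on how zeros are handled and are no bound. Over all genes, 43 were higher and 17 lower, and DESeq2 gave 68 and 37. Without single libraries the counts ran from 19 to 52 and from 7 to 24, with 20 and 7, 20 and 8, and 19 and 7 without V replicates 2, 3 and 4. Other scalings shifted the median of all genes by less than 0.1. Counts of about 100 limit the receptor genes. Where no cause is given, the cause was not tested.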

Other observations

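The genes around the peptide pair gave no call. Of 34 other genes tested that start within 1 Mb of Avp and Oxt on chromosome 2, 0 passed edgeR's quasi-likelihood test (smallest adjusted p = 0.574). Over all genes tested 0.416% passed in either direction, so a count of 0 among 34 says little. The median log2 fold change of these 34 genes was -0.07, against 0.01 for all genes, with 10 above and 24 below 0.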
